A study of Mus musculus with 3 samples.

Results

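Collagen genes other than the 3 best known from cartilage were followed in single cells of the mouse forelimb bud. All symbols of the form Col, number, a, number were taken except Col2a1, Col9a1 and Col11a1. Of 39 such symbols, 36 made up the set, out of 15122 genes in the matrix. The forelimb buds were wild type and came from 3 groups: c57bl6.J embryos at E9.5, c57bl6.J embryos at E10.5 and 129S6.sv embryos at E9.5. Each group was 1 library of 10x 3′ version 2 single-cell RNA from forelimb tissue, and how many embryos were pooled for each is unknown here. The groups share no deletion, transgene or treatment. With 1 library a group there was no replicate check and no test, and p-values are not given. Stage and strain are the contrasts that the labels set.

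Collagens are trimers of chains with a repeating glycine triplet. Fibrillar collagens I, III and V assemble into the fibrils of loose connective tissue, and collagen XXVII is a minor fibrillar type. FACIT collagens (IX, XII, XIV, XIX) attach to fibril surfaces. Collagen IV is the network of every basement membrane, and the multiplexins XV and XVIII sit in the same membranes. Collagens XIII, XVII, XXIII and XXV cross the plasma membrane. In a limb bud the mesenchyme fills the core, the ectoderm covers it on a basement membrane, muscle progenitors migrate in from the somites, and endothelium lines the vessels.

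Cell classes were the authors' own clusters: limb mesenchyme, ectoderm, muscle progenitor, endothelium and erythroid. The matrix held 43950 cells, with 124388358, 119942504 and 93029510 UMIs (counted RNA molecules) in the c57bl6.J E9.5, c57bl6.J E10.5 and 129S6.sv E9.5 libraries. In every triplet of values below the libraries stand in that order. Levels are CPM, a gene's summed UMIs scaled to one fixed class total. Summed markers of each class were high in it: 1144, 1278 and 1032 CPM for 6 mesenchymal genes in mesenchyme, and 2624, 2807 and 2993 CPM for 9 ectodermal genes in ectoderm. In the endothelial cluster 7 endothelial genes summed to 2763, 1993 and 2948 CPM, but 10 macrophage genes also stood at 35.8, 1374 and 19.7 CPM and 6 megakaryocyte genes at 236.5, 1427 and 287.8 CPM. In the muscle progenitor cluster 7 neuronal genes stood at 7.28, 12.2 and 881.3 CPM. Levels in haemoglobin-rich erythroid cells are given as a background, and whether they measure free RNA was not tested. The erythroid cells of c57bl6.J E9.5 had a median of 735 UMIs against 14608 and 12004. Haemoglobin genes took 31.7%, 50.3% and 51.7% of erythroid UMIs, which lowers the CPM of other genes there. A cell barcode occurring in more than 1 library was found in 1728 cells. No doublet caller was run.

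Col23a1, whose level was raised in E10.5 mesenchyme, and the pair of collagen IV genes whose level was highest in ectoderm are shown by the sequence before their start sites. The bases run 5′ to 3′ on the gene's strand, from RefSeq on GRCm38.p6, and only bases outside annotated exons are printed. Capitals mark the letters CCAAT of the CCAAT box on either strand. They also mark the letters GGGCGG of the GC box, and would mark the letters TATAAA of the TATA box. The intervals are chr11:51289670-51289919 (plus strand, Col23a1), chrX:141474077-141474326 (minus, Col4a6) and chrX:141475169-141475384 (plus, Col4a5).
Col23a1: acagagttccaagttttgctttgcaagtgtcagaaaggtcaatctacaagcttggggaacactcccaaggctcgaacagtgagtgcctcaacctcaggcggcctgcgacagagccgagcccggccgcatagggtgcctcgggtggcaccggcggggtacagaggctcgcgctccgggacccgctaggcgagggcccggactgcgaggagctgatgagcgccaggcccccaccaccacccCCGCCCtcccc
Col4a6: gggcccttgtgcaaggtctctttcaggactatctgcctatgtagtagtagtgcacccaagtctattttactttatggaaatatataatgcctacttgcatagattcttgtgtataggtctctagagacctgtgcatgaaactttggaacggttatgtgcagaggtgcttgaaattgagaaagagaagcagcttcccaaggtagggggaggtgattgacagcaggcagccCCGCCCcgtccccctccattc
Col4a5: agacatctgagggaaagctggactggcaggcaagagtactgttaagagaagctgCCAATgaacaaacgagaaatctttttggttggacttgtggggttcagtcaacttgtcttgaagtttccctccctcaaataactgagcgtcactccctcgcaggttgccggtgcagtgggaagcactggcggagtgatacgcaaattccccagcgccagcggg
The GGGCGG letters stood in 2 of these 3 stretches and CCAAT in 1, with TATAAA in none. Over the 250 bases before all 32851 RefSeq starts in the table, 32.7% held GGGCGG, 33.8% CCAAT and 12.4% TATAAA on either strand. Such letters describe the sequence and are not binding sites. The start of Col4a6 on the minus strand of chromosome X lies 1342 bases from that of Col4a5 on the plus strand. On chromosome 8, Col4a1 (minus) and Col4a2 (plus) start so close that their first 22 bases overlap. Table entries existed for 29 of the 36 genes; Col1a1, Col5a2, Col9a3, Col12a1, Col14a1, Col22a1 and Col26a1 had none.

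The first comparison was where each gene is transcribed. A gene was counted as measurable when some class reached 5 CPM, and 20 of the 36 did so. Of those, 12 were highest in the same class in all 3 libraries. Only 1 library of a class had to reach 5 CPM, so some of these orders rest on lower values. Among them, Col12a1 and Col14a1 fell to 0.868 and 0.926 CPM in mesenchyme, and Col19a1 to 0.745 CPM in ectoderm. The clusters were made from these cells, so class differences are given as levels with no test. Mesenchyme was highest for Col1a1 and Col3a1, chains of collagens I and III, and for Col12a1 and Col14a1, both FACIT collagens. Ectoderm was highest for Col4a5, Col4a6 and Col19a1. Muscle progenitors were highest for Col13a1 and Col26a1, and endothelium for Col4a1, Col4a2 and Col15a1.

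**Figure D1:**
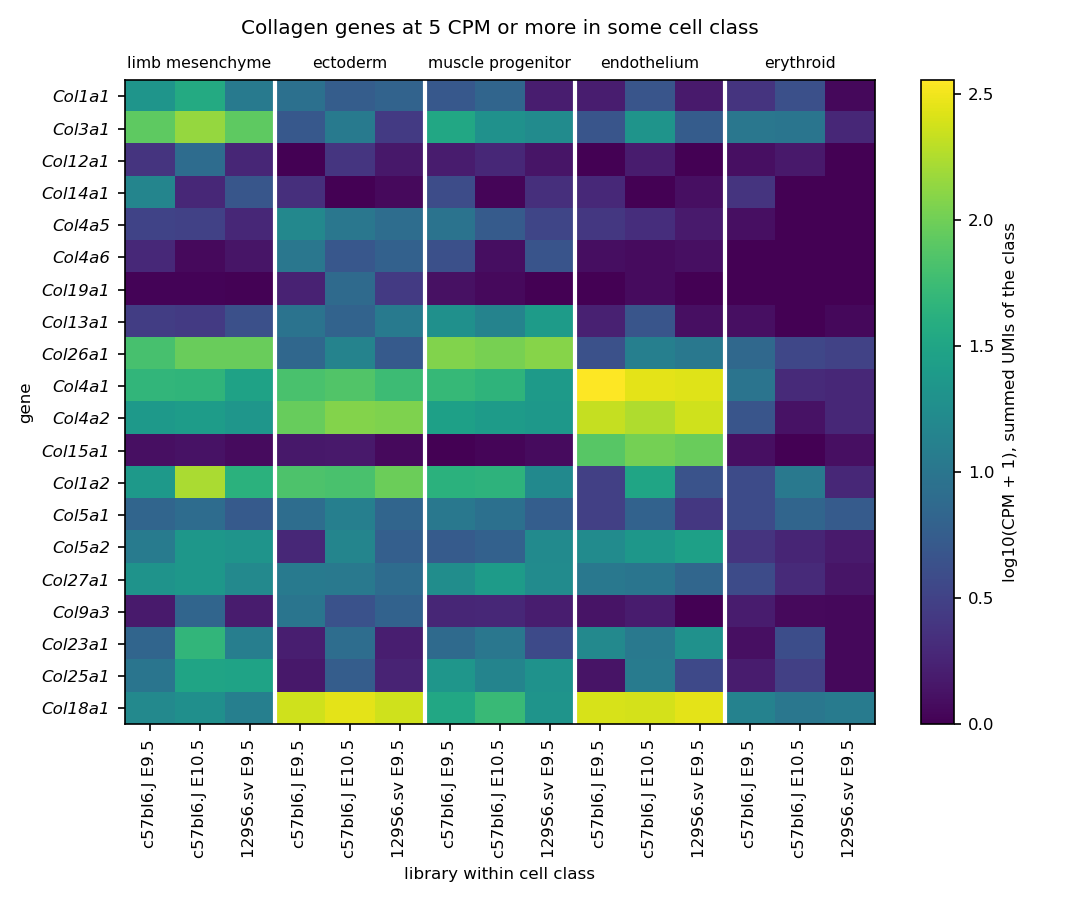
Level of the 20 measurable collagen genes (rows) in each library within each cell class (columns), as the base-10 logarithm of CPM plus 1 from summed UMIs. Along a row, Col4a1, Col4a2 and Col15a1 are brightest in all 3 endothelial columns, Col18a1 in ectoderm and endothelium, and Col1a2 is brightest in E10.5 mesenchyme.

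The 16 genes under 5 CPM everywhere included all 3 chains of collagen VI, a beaded-filament collagen: Col6a1, Col6a2 and Col6a3 reached at most 3.31, 4.48 and 4.50 CPM, each in E10.5 mesenchyme. Col17a1, the hemidesmosome collagen, and Col7a1, the anchoring-fibril collagen, reached at most 3.73 and 3.08 CPM, both in E10.5 ectoderm. Col9a2, a chain of collagen IX, reached 4.58 CPM in E10.5 mesenchyme. The other 10 were Col5a3, Col11a2, Col24a1, Col4a4, Col16a1, Col20a1, Col22a1, Col8a1, Col8a2 and Col28a1, none above 1.99 CPM in any class of any library.

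Col4a1, on chromosome 8 from 11198423 to 11312826, was at 357.8, 283.7 and 269.4 CPM in endothelium. Its partner chain Col4a2, at 11312805 to 11449287 on the same chromosome, was at 210.9, 177.3 and 231.0 CPM there. Both endothelial levels lay above all others in each library: Col4a1 was 5.54, 3.96 and 4.82 times its ectodermal level, and Col4a2 2.36, 1.47 and 2.04 times. Erythroid cells had 8.55, 1.01 and 0.906 CPM of Col4a1, below the endothelial level in each library.

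Col15a1, whose protein is a multiplexin of vessel and muscle basement membranes, was at 76.7, 104.5 and 92.2 CPM in endothelium. No other class reached 5 CPM, and with thinning of each cell to 2000 UMIs 14.0%, 15.4% and 15.5% of endothelial cells had a UMI of it. Col18a1, the related multiplexin whose C-terminal fragment is endostatin, was shared by 2 classes. It was at 234.1, 280.0 and 234.3 CPM in ectoderm and at 252.3, 242.6 and 278.3 CPM in endothelium, so neither class was ahead in all libraries. In mesenchyme it was at 14.96, 17.9 and 11.5 CPM, beside 12.5, 9.42 and 10.49 CPM in erythroid cells. Muscle progenitors lay between, at 35.3, 52.9 and 20.9 CPM in those without a UMI of the neuronal genes Elavl3, Elavl4 or Stmn2. The share of ectodermal cells with a Col18a1 UMI was 74.6%, 66.8% and 58.4% (95% exact Clopper-Pearson intervals 71.8 to 77.3, 63.8 to 69.6 and 55.6 to 61.2), against 4.10%, 13.7% and 11.8% of erythroid cells. After thinning to 2000 UMIs these shares were 37.8%, 41.2% and 34.4% against 2.55%, 1.53% and 2.74%. All such intervals cover counting error only.

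Col26a1, a short collagen, was at 118.0, 105.8 and 123.5 CPM in muscle progenitors and at 63.0, 92.4 and 92.5 CPM in mesenchyme. Muscle progenitors were the higher class in each library, with the narrowest margin at E10.5. In ectoderm, endothelium and erythroid cells Col26a1 was at 13.0 CPM or less.

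Col4a5 and Col4a6, the X-linked chains of epithelial basement membranes whose upstream bases are shown above, were much lower in CPM. Col4a5 was at 14.5, 9.24 and 7.12 CPM in ectoderm, 6.41, 4.30 and 7.81 times its mesenchymal level. Col4a6 was at 9.31, 3.89 and 5.22 CPM in ectoderm. Its endothelial level was 0.0261, 0.0498 and 0.0518 of that, from only 2, 1 and 1 UMIs. The chromosome X pair and the chromosome 8 pair thus had opposite places in the order of endothelium and ectoderm.

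Col1a2 had no fixed class. Its product is the second chain of collagen I, and the gene lies on chromosome 6 from 4504814 to 4541544. It was at 67.8, 64.7 and 93.8 CPM in ectoderm, at 22.8, 169.8 and 41.7 CPM in mesenchyme, and at 41.9, 43.9 and 15.3 CPM in muscle progenitors. Ectoderm was above mesenchyme in both E9.5 libraries and below it at E10.5. The partner chain Col1a1 was at 7.72, 4.70 and 5.54 CPM in ectoderm, 0.373, 0.133 and 0.551 of its mesenchymal level. The pair of chains therefore had a different class order in the 2 E9.5 libraries. Col2a1, left out of the set as a cartilage gene, was also measured in ectoderm, at 141.8, 115.1 and 131.0 CPM.

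**Figure D2:**
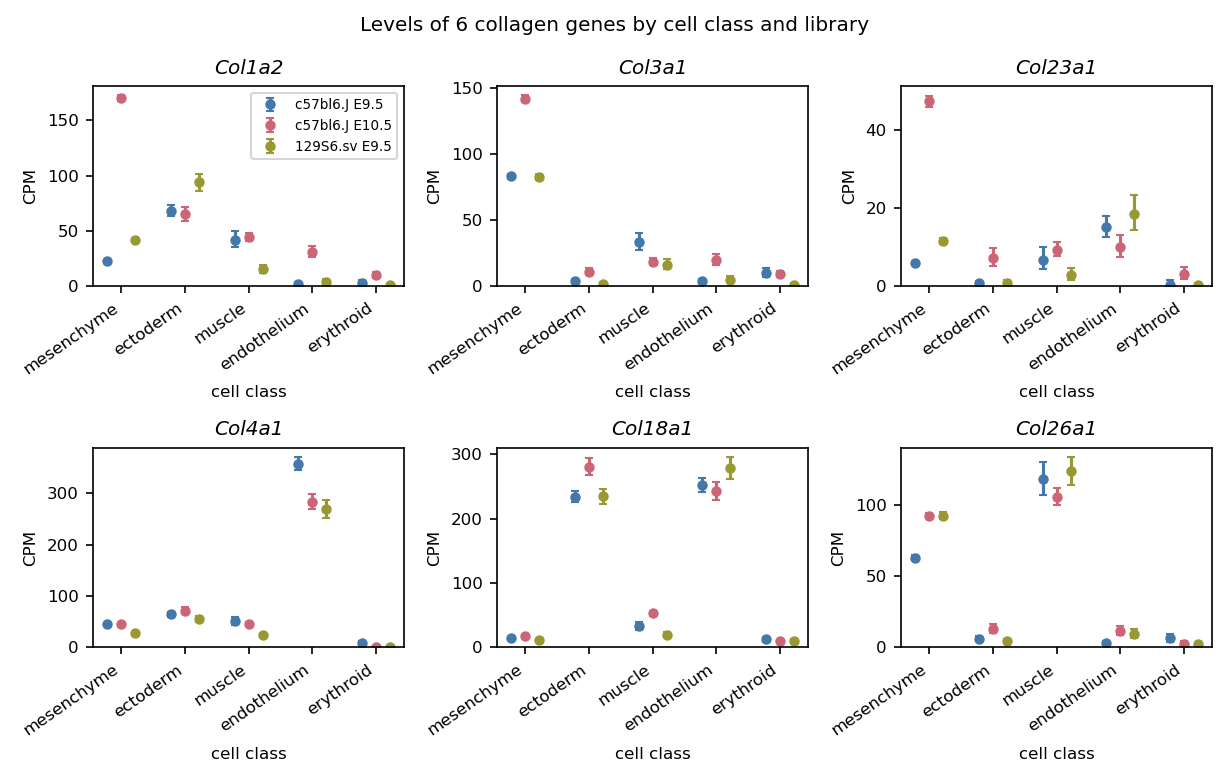
Level in CPM of 6 collagen genes (panels) by cell class, with 1 point per library and bars for exact Poisson 95% intervals, which cover counting error only. Col1a2 is highest in E10.5 mesenchyme (169.8 CPM) and in E9.5 ectoderm (67.8 and 93.8 CPM), while Col4a1 is highest in endothelium and Col18a1 in ectoderm and endothelium.

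The stage comparison asked which collagen genes differed between E10.5 and E9.5 within a class. A gene was called higher when its CPM at E10.5 was at least 2 times that of both E9.5 libraries, and lower at 0.5 of both or less, if the highest library had at least 5 CPM and 20 UMIs. Both comparisons share the E10.5 library, and 1 of the E9.5 libraries differs from it in strain as well as stage. A gene can reach the floor through a single library, the one where it is high. This holds for collagen genes and other genes alike, so the counts of calls are descriptions.

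In limb mesenchyme, 15 of the 36 genes could be tested in this way; 4 were higher and 1 lower at E10.5. Of the other 9554 genes tested, those outside the collagen set, 4.11% were higher and 1.19% lower. The median log2 ratio of the collagen genes was 0.77 against c57bl6.J E9.5 and 0.67 against 129S6.sv E9.5, beside 0.09 and 0.08 for all genes tested. With TMM scaling the same 4 and 1 genes were called, while the higher share of all calls went from 77.5% to 67.0% and the all-gene median moved by -0.16 and -0.13.

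Col1a2 was higher, with ratios of 7.46 (95% interval 7.13 to 7.80, exact conditional binomial) and 4.07 (3.91 to 4.24). The share of mesenchymal cells with a UMI was 15.1%, 52.2% and 23.9% (intervals 14.4 to 15.8, 51.4 to 53.0 and 23.1 to 24.8), against 1.05%, 9.98% and 0.954% of erythroid cells. At 2000 UMIs a cell the mesenchymal shares were 4.70%, 27.6% and 8.00%. The E10.5 library was thus ahead at equal depth too.

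Col23a1, a transmembrane collagen on chromosome 11 from 51289920 to 51583918, was at 5.85, 47.3 and 11.5 CPM. Its ratios were 8.09 (7.41 to 8.84) and 4.11 (3.81 to 4.44). At E9.5 its 129S6.sv level was 1.97 times that of c57bl6.J, and for Col1a2 this ratio was 1.83, both short of 2.

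Col12a1 and Col9a3 are FACIT genes, the first known from tendon and fascia and the second a chain of collagen IX. Col12a1 was at 1.44, 7.01 and 0.868 CPM, with ratios of 4.86 (4.05 to 5.87) and 8.08 (6.20 to 10.7). Col9a3 was at 0.538, 5.78 and 0.555 CPM, with ratios of 10.7 (8.08 to 14.5) and 10.4 (7.51 to 14.8). Col9a2, its partner chain, was at 0.0711, 4.58 and 0.114 CPM and missed the floor of 5 CPM. Col12a1 and Col9a3 reached that floor at E10.5 only, so their calls are descriptions.

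Col14a1, a FACIT collagen of fibril surfaces on chromosome 15, was the gene called lower. It was at 13.5, 0.926 and 3.77 CPM, which is 14.5-fold lower at E10.5 than in c57bl6.J E9.5 and 4.07-fold lower than in 129S6.sv E9.5. The E9.5 libraries did not share a level, since the 129S6.sv level was 0.280 of the c57bl6.J one. Markers of mesothelium and flank lateral plate (6 genes) moved the same way in the mesenchymal cluster, at 33.5, 5.84 and 15.5 CPM in sum; their part in the Col14a1 difference was not tested.

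The other 5 fibrillar genes tested were not called. Col3a1 was at 83.2, 142.0 and 82.7 CPM, ratios of 1.71 and 1.72. Col1a1 was at 20.7, 35.4 and 10.0 CPM, ratios of 1.71 and 3.52. Col5a2, a collagen V chain, was at 10.51, 21.4 and 19.9 CPM and passed 2-fold only against c57bl6.J E9.5. The basement membrane genes were flatter: Col4a1 had ratios of 0.985 and 1.59, and Col4a2 of 1.09 and 1.18. Among the 3 cartilage genes left out, Col2a1 had ratios of 13.4 and 13.4 and Col9a1 of 12.1 and 8.02, and Col11a1 is not set beside them here. The Col2a1 ratios were above those of all 15 genes tested.

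**Figure D3:**
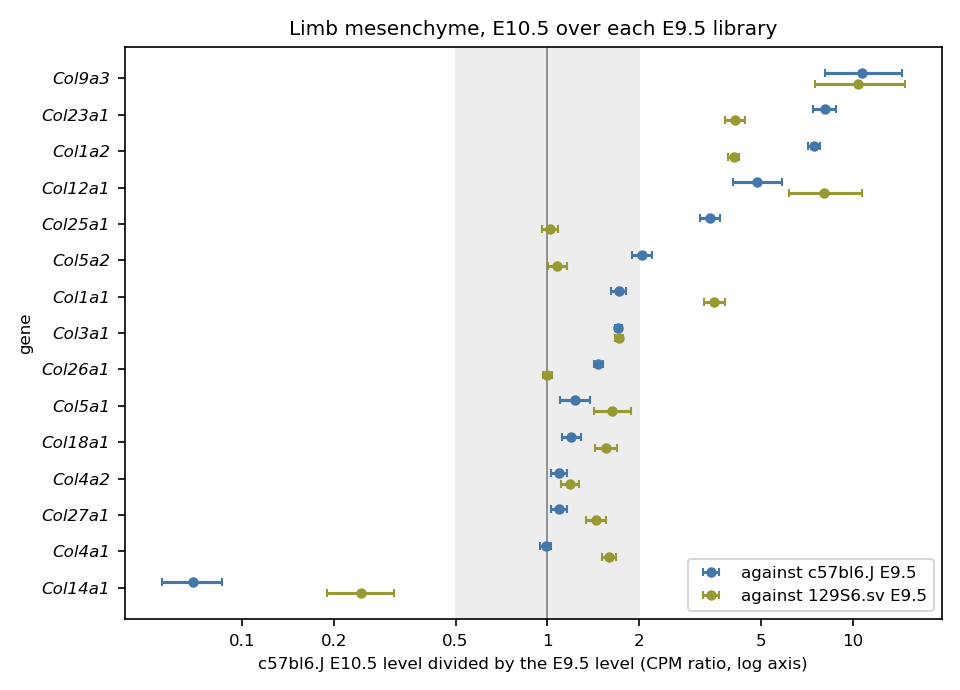
CPM at E10.5 divided by CPM in each E9.5 library for the 15 collagen genes tested in limb mesenchyme, on a log axis with exact conditional binomial 95% intervals for counting error. The grey band spans 0.5 to 2; Col9a3, Col23a1, Col1a2 and Col12a1 lie right of it for both E9.5 libraries and Col14a1 left of it.

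Whether these genes kept apart from cartilage was described by splitting E10.5 mesenchyme into 6990 cells with and 8335 cells without a UMI of Sox9, the cartilage transcription factor. The median depth was 5646 and 5152 UMIs. Of 16 collagen genes at the floor, 2 were at least 2-fold higher in the Sox9-positive cells and 0 lower, where 0.586% of the other genes were higher and 0.554% lower. These were Col9a2 (7.69 against 1.61 CPM, ratio 4.77, interval 3.70 to 6.21) and Col9a3 (9.61 against 2.13 CPM, 4.52, 3.62 to 5.68). Col9a2 was under 5 CPM in the class as a whole and reached the floor through the Sox9-positive cells, so its ratio is a description. Among the 3 cartilage genes left out, Col2a1 and Col9a1 had ratios of 4.28 and 2.23, and Col11a1 is not set beside them here. Col9a3 also reached 5 CPM only in the Sox9-positive cells of this split, so its ratio is a description as well. Cells with a Sox9 UMI were not shown to be cartilage, so the name "outside cartilage" was not tested for Col9a3. Its highest level in any class was 8.93 CPM, in ectoderm. Ectoderm was its highest class in both E9.5 libraries, and mesenchyme at E10.5. The other 14 of the 16 collagen genes had ratios from 0.715 (Col4a1) to 1.49 (Col12a1). Col1a2 was at 180.5 against 159.6 CPM, a ratio of 1.13, and Col23a1 at 56.2 against 38.8 CPM, a ratio of 1.45.

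**Figure D4:**
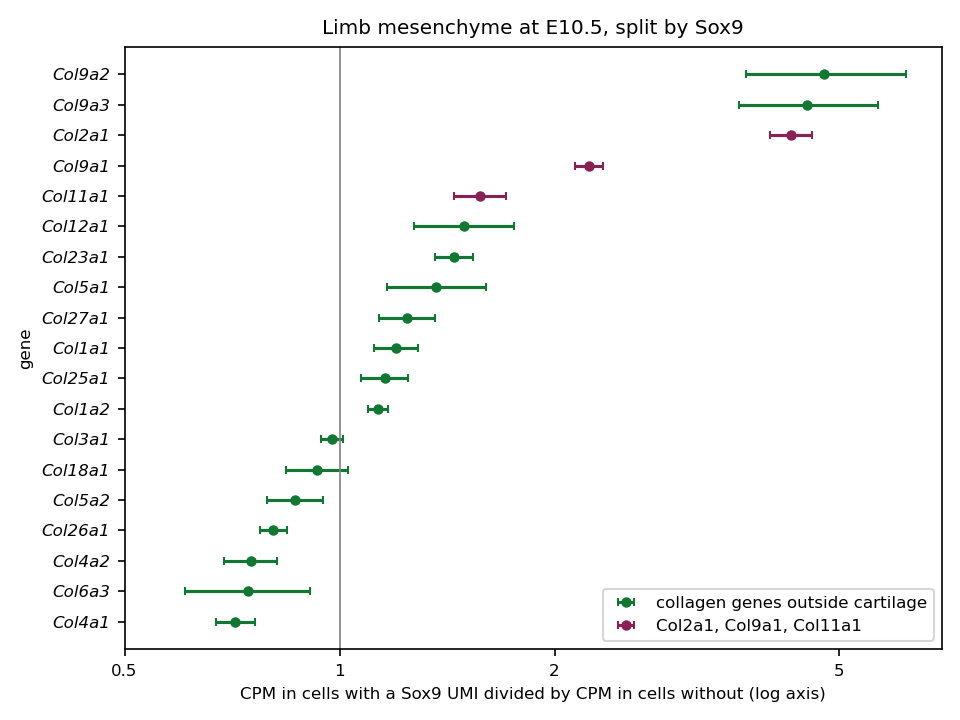
CPM in E10.5 mesenchymal cells with a Sox9 UMI divided by CPM in those without, on a log axis with exact conditional binomial 95% intervals, for collagen genes at the floor and for the 3 cartilage genes left out. Col9a2 and Col9a3 sit beside Col2a1 at ratios above 4, and all others of the set lie between 0.715 and 1.49.

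In a split by Scx, the tendon transcription factor, 15 collagen genes were at the floor at E10.5; 0 were at least 2-fold higher and 0 lower, where 0.245% of the other genes were higher and 0.373% lower. Under the floor, Col13a1 was at 0.940 against 2.14 CPM, a ratio of 0.439 (0.283 to 0.662). Col12a1 was at 10.0 CPM in the 4570 Scx-positive cells and 5.46 CPM in the rest, a ratio of 1.83 (1.56 to 2.15). Col9a2, Col5a1 and Col23a1 followed at 1.64, 1.63 and 1.54. Col4a1 and Col4a2 were at 0.772 and 0.744, lower in Scx-positive cells as they were in Sox9-positive cells. At E9.5, with 12 genes at the floor in each strain, 0 were higher and 0 lower in c57bl6.J (0.858% and 0.469% of the other genes) and 1 was higher and 0 lower in 129S6.sv (0.722% and 0.367%). The 1 was Col23a1, at 23.0 against 11.02 CPM, a ratio of 2.09 (1.60 to 2.69) from 359 Scx-positive cells.

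In ectoderm, 16 of the 36 genes could be tested; 5 were higher at E10.5 and 0 lower. Among the 5, Col5a2, Col19a1, Col3a1 and Col23a1 reached 5 CPM at E10.5 only, so their calls are descriptions. Of the other 9967 genes tested, 2.92% were higher and 0.993% lower. Genes listed as markers of other cells also differed in the ectodermal cluster. There 7 neural crest genes summed to 38.6, 251.3 and 57.3 CPM and 6 mesenchymal genes to 335.4, 218.1 and 243.3 CPM. The 6 tendon and connective tissue genes summed to 147.0, 294.4 and 151.2 CPM. That last sum was 278.5, 313.9 and 279.2 CPM in endothelium, so it is not particular to 1 class. The part of other cells in the collagen counts was not tested beyond the alternative below. Col5a2 was at 0.931, 13.5 and 4.90 CPM, ratios of 14.5 (7.48 to 31.3) and 2.74 (1.80 to 4.29). Col19a1, a FACIT-like collagen of basement membrane zones, was at 0.745, 6.65 and 1.74 CPM, ratios of 8.93 (4.13 to 22.1) and 3.82 (1.93 to 8.24). Both rest on few molecules: 83 UMIs of Col5a2 and 41 of Col19a1 at E10.5. With cells thinned to 2000 UMIs, Col5a2 was the 1 gene still called higher, and Col13a1 was called lower.

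Col3a1 (4.002, 10.4 and 1.74 CPM), Col23a1 (0.651, 7.13 and 0.633 CPM) and Col26a1 (6.14, 13.0 and 4.27 CPM) were the other 3. These are genes with far higher mesenchymal levels, and erythroid cells had 9.41, 8.74 and 0.906 CPM of Col3a1. In an alternative added after seeing the data, ectodermal cells with a UMI of Prrx1, Tbx5, Shox2, Twist1 or Fgf10, genes of mesenchyme, were left out. Then 2 were higher, Col5a2 and Col19a1, and 1 lower, Col1a1, while 2.49% of the other genes were higher and 1.14% lower. Col23a1 still had ratios of 3.30 and 7.02 but, at 2.45 CPM, was under the floor. Col3a1, also under the floor, had 1.42 and 3.19, and Col26a1 had 1.30 and 2.08. In the E10.5 cells with such a UMI, Col3a1 was 8.69 times (4.79 to 16.7), Col23a1 7.98 times (3.93 to 17.5) and Col26a1 4.20 times (2.63 to 6.82) its level in the others.

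The abundant ectodermal genes did not pass 2-fold between stages. Col18a1 had ratios of 1.20 and 1.20, Col4a1 of 1.11 and 1.28, Col4a2 of 1.35 and 1.06, and Col1a2 of 0.955 and 0.690. For Col1a2 the mesenchymal and ectodermal ratios thus lay on opposite sides of 1.

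Within the ectoderm, cells with a UMI of Fgf8, the signal of the apical ectodermal ridge at the limb tip, were set against the rest. They numbered 460, 251 and 514, against 549, 775 and 739, with median depths of 11926, 5598 and 4490 against 8707, 5805 and 4952 UMIs. Of 12, 10 and 9 collagen genes at the floor, 1, 4 and 3 were at least 2-fold higher, where 1.83%, 4.57% and 3.55% of the other genes were. Col13a1, a transmembrane collagen known from the neuromuscular junction, was higher in all 3 libraries: 11.8 against 4.96, 19.1 against 1.08 and 20.96 against 3.12 CPM. Its ratios were 2.38 (1.49 to 3.90), 17.7 (6.79 to 58.7) and 6.71 (3.53 to 13.8). In each library Col13a1 reached 5 CPM only in the Fgf8-positive cells of this split, so its calls are descriptions. With cells thinned to 2000 UMIs before the split, its call remained in 129S6.sv E9.5 alone, with a ratio of 4.87 (2.21 to 11.8). In the other libraries it then missed the floor of 20 UMIs, with ratios of 1.81 (0.688 to 4.68) and 16.6 (1.86 to 785.7).

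Col1a2 was at 75.9, 131.6 and 137.8 CPM in Fgf8-positive cells and at 59.2, 42.8 and 65.4 CPM in the others, ratios of 1.28, 3.07 and 2.11. Col27a1, a fibrillar collagen, had ratios of 1.76, 3.16 and 4.13. In 129S6.sv E9.5 it reached 5 CPM only in the Fgf8-positive cells, so that call is a description. Col5a2 had a ratio of 5.13 (3.23 to 8.28) at E10.5, at 34.2 against 6.67 CPM. Col18a1 went the other way in every library, at 0.822, 0.635 and 0.629. Col4a1 was at 0.919, 0.953 and 0.936, and Col4a2 at 1.10, 1.32 and 1.18, with an interval of 1.13 to 1.55 at E10.5. After thinning, the Col1a2 ratios were 0.981, 2.65 and 1.94 and those of Col18a1 0.938, 0.587 and 0.614, so in c57bl6.J E9.5 the Col1a2 ratio moved to just under 1 (0.658 to 1.44).

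Wnt7a is the signal of dorsal ectoderm. In the split by a Wnt7a UMI, Col1a2 and Col18a1 lay on the other side of 1 than in the Fgf8 split, in every library. Of 13, 11 and 9 collagen genes at the floor, 3, 4 and 2 were at least 2-fold lower, where 2.76%, 5.07% and 5.34% of the other genes were. Col1a2 was at 47.2, 31.3 and 53.3 CPM in Wnt7a-positive cells and at 76.3, 71.1 and 106.2 CPM in the others, ratios of 0.619, 0.441 and 0.502. Col18a1 was at 294.9, 345.8 and 311.2 against 208.8, 267.5 and 210.7 CPM, ratios of 1.41, 1.29 and 1.48. The others called lower were Col3a1, Col1a1 and Col9a3 in c57bl6.J E9.5 and Col3a1, Col13a1 and Col1a1 at E10.5. In 129S6.sv E9.5 they were Col1a1 and Col9a3. All these others had at most 9 UMIs in Wnt7a-positive cells. They reached 5 CPM only in the cells without a Wnt7a UMI, so their calls are descriptions.

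En1 marks ventral ectoderm. Of 12, 11 and 9 collagen genes at the floor, 1, 0 and 0 were at least 2-fold higher in En1-positive cells, where 1.02%, 0.450% and 0.691% of the other genes were. The 1 was Col1a1, at 11.9 against 4.27 CPM in c57bl6.J E9.5. It reached 5 CPM only in the En1-positive cells, so this call is a description. Col1a2 had ratios of 1.37, 1.38 and 1.65 and Col18a1 of 0.817, 0.882 and 0.892, so each lay on the same side of 1 as in the Fgf8 split before thinning. After thinning, the En1 ratios were 0.947, 1.16 and 1.69 for Col1a2 and 0.780, 0.714 and 1.05 for Col18a1, each on the opposite side of 1 in 1 library. The Wnt7a ratios kept their side, at 0.434, 0.376 and 0.498 for Col1a2 (6, 2 and 13 UMIs in positive cells) and 1.63, 1.33 and 1.47 for Col18a1. Cells with an En1 or Wnt7a UMI were deeper than the rest in every library, for Wnt7a with medians of 13182, 8044 and 6449 against 9541, 5515 and 4426 UMIs.

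**Figure D5:**
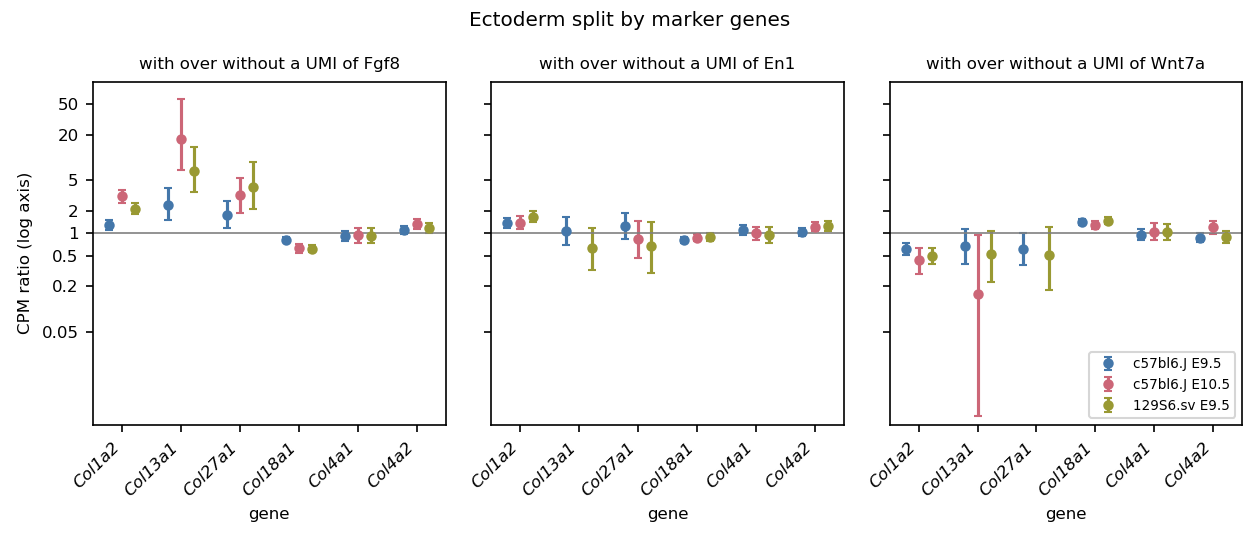
CPM in ectodermal cells with a UMI of Fgf8, En1 or Wnt7a divided by CPM in cells without, for 6 collagen genes at the floor, 1 point per library on a log axis with exact conditional binomial 95% intervals. Col1a2 lies above 1 for Fgf8 and En1 and below 1 for Wnt7a in all 3 libraries, and Col18a1 does the reverse; with thinned cells 3 of these points, all for Fgf8 or En1, cross 1.

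In muscle progenitors, 14 of the 36 genes could be tested, and 0 were higher and 0 lower at E10.5. Of the other 9695 genes tested, 2.95% were higher and 3.03% lower; when mitochondrial, ribosomal protein and haemoglobin genes were left out of the totals, the higher share of all calls went from 49.3% to 60.1% and the all-gene median log2 ratio moved by 0.09 and 0.14. Col26a1 had ratios of 0.896 and 0.856. Col13a1 was at 18.4, 12.9 and 24.3 CPM, ratios of 0.702 and 0.531. Col25a1, a transmembrane collagen needed for motor axons to grow into muscle, was at 20.97, 13.3 and 19.3 CPM, ratios of 0.634 and 0.689. Leaving out cells with a UMI of Elavl3, Elavl4 or Stmn2, neuronal genes, an alternative added after seeing the data, also gave 0 and 0.

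In endothelium, 12 of the 36 genes could be tested; 4 were higher at E10.5 and 0 lower, while 5.97% of the other 10001 genes were higher and 0.990% lower. All 4 had mesenchymal levels above their endothelial ones in each of the 3 libraries. In endothelium all 4 reached 5 CPM at E10.5 only, so their calls are descriptions. Col1a2 was at 2.06, 30.6 and 3.52 CPM, ratios of 14.9 (8.99 to 26.1) and 8.71 (4.95 to 16.7). Col3a1 was at 3.76, 19.8 and 4.598 CPM, ratios of 5.26 (3.49 to 8.14) and 4.30 (2.56 to 7.66). Col5a1 was at 2.06, 5.43 and 1.62 CPM, and Col25a1 at 0.364, 10.46 and 2.70 CPM. With cells thinned to 2000 UMIs, Col1a2 and Col3a1 were still called and the other 2 were not.

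Several values move with this. Mesenchymal markers in the endothelial cluster summed to 56.6, 111.0 and 63.6 CPM, and the erythroid level of Col1a2 was 2.85, 9.75 and 0.906 CPM. When only the 711, 504 and 393 endothelial cells with a UMI of 1 of 7 endothelial markers were kept, an alternative added after seeing the data, the same 4 genes were higher, where 5.31% of the other genes were. Col1a2 was then at 2.09, 20.4 and 2.07 CPM and Col3a1 at 3.82, 11.02 and 5.02 CPM. In the E10.5 cells of the cluster without an endothelial marker UMI, Col1a2 was at 73.9 CPM and Col3a1 at 56.7 CPM. The part of these cells and of free RNA in the remaining difference was not tested.

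Vessel collagens belonged to the marker-positive cells. At E10.5, Col4a1 was at 347.2 CPM in cells with an endothelial marker and 15.2 CPM in the others of the cluster, and Col18a1 at 294.8 against 22.3 CPM. Col15a1 was at 129.2 CPM against 0 UMIs, at least 42.5-fold higher when 3 UMIs stand for none. With cells thinned to 2000 UMIs before the split, 2 UMIs fell in the others and the ratio was 26.0 (7.02 to 217.8). Within the marker-positive cells, Col4a1 had stage ratios of 0.956 and 1.19, Col4a2 of 1.00 and 0.870, Col15a1 of 1.66 and 1.28 and Col18a1 of 1.15 and 0.986, none of them past 2-fold.

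The strain comparison set 129S6.sv against c57bl6.J at E9.5. In mesenchyme 13 collagen genes could be tested; 1 was higher in 129S6.sv and 2 lower, where 3.20% of the other 9145 genes were higher and 4.72% lower. The higher gene was Col25a1, at 8.85 CPM in c57bl6.J and 29.6 CPM in 129S6.sv, a ratio of 3.34 (3.08 to 3.62). At E10.5 c57bl6.J mesenchyme had 30.1 CPM, so the c57bl6.J E9.5 library stood apart from both others. The lower genes were Col14a1 and Col1a1, the latter with a ratio of 0.485 (0.445 to 0.529), whose upper bound is past 0.5. In ectoderm 12 could be tested; 0 were higher and 1 lower, where 3.04% of the other 9603 genes were higher and 4.18% lower. The 1 was Col4a5, with a ratio of 0.490 (0.344 to 0.687), a call that was lost when cells with a shared barcode were left out. In muscle progenitors 1 of 13 tested was higher and 6 lower, beside 502 and 677 of all 9375 genes tested. The 1 was Col5a2, and the 6 were Col1a2, Col3a1, Col5a1, Col4a1, Col4a5 and Col23a1. Neuronal markers also differed in that cluster, at 7.28 CPM in c57bl6.J and 881.3 CPM in 129S6.sv. Without cells holding a UMI of Elavl3, Elavl4 or Stmn2, the Col5a2 ratio was 3.52. The ratios were then 0.373 for Col1a2, 0.495 for Col4a1, 0.330 for Col4a5 and 0.436 for Col23a1. Those of Col3a1 and Col5a1 were 0.549 and 0.531, no longer at 0.5 or less. The cause of these strain differences was not tested. In endothelium 1 of 8 was higher and 0 lower, beside 453 and 411 of all 9368 genes tested. Strain, library and the exact age of the embryos cannot be told apart here.

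Partner chains were also counted cell by cell after thinning to 2000 UMIs. In endothelium, cells with both Col4a1 and Col4a2 numbered 86 of 551, 87 of 558 and 59 of 413, beside 81.3, 46.7 and 41.8 from the product of the 2 shares. The cluster held 14, 191 and 67 thinned cells without an endothelial marker UMI, and those at E10.5 had little of either gene. The part of these cells in the joint counts was not tested. In ectoderm the counts were 16, 16 and 26, beside 17.9, 21.3 and 29.5, so no excess was seen there. In mesenchyme Col1a1 and Col1a2 met in 35, 315 and 26 cells, beside 13.8, 260.0 and 13.5. Col6a1 and Col6a2 met in 0, 1 and 0 mesenchymal cells, so their joint detection was not measurable at this depth.

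The genes that process, cross-link and bind collagen were counted in the same way from 8 lists of 66 genes, 60 of them in the matrix. In mesenchyme 4 of 40 tested were higher at E10.5 and 0 lower. Bmp1, the proteinase that removes the C-terminal propeptide of fibrillar procollagens, was at 15.8, 55.2 and 25.6 CPM. P3h3, a prolyl 3-hydroxylase family member, was at 11.5, 30.3 and 10.6 CPM. Loxl1, a cross-linking oxidase, was at 0.904, 6.87 and 1.24 CPM, and Lum, the fibril-binding proteoglycan lumican, at 1.04, 6.53 and 0.669 CPM. Their shares stand beside the 4.11% and 1.19% of genes outside the collagen set given above.

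In ectoderm 1 of 37 tested was higher, P3h3 (3.07, 7.62 and 1.42 CPM), and 0 lower, near the shares of other genes given above (2.92% and 0.993%). In muscle progenitors 2 of 39 were higher and 2 lower, beside 2.95% and 3.03% of other genes. P4ha3, a prolyl 4-hydroxylase subunit, was at 0, 7.02 and 0.796 CPM and the collagen receptor Ddr1 at 1.75, 8.44 and 1.79 CPM. Nid1, the nidogen that links laminin to collagen IV, was at 25.3, 5.02 and 14.1 CPM, and the gelatinase Mmp9 at 4.66, 0.502 and 6.36 CPM. Endothelial markers in the muscle cluster moved with these last genes, at 192.6, 27.1 and 113.4 CPM for 7 genes, and their part was not tested.

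In endothelium 2 of 37 were higher and 0 lower, near the shares of other genes (5.97% and 0.990%). These were Pcolce, the enhancer of procollagen cleavage, at 4.12, 13.0 and 2.43 CPM, and Postn, the matrix protein periostin, at 0.121, 33.3 and 4.598 CPM. Postn in c57bl6.J E9.5 endothelium was a single UMI.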

How the data were processed

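Deposited raw counts (UMIs per gene and cell) of 3 libraries were analysed, with the authors' deposited cluster of each cell; per the submitters' processing notes, Cell Ranger version 3 and the mm10 build were used. The authors' cell filters are unknown here; no cell in the matrix exceeds 10% mitochondrial UMIs. UMIs were summed per cluster and library and divided by the class total (CPM). Levels have exact Poisson 95% intervals, ratios exact conditional binomial ones and shares exact Clopper-Pearson ones, all for counting error only. A count of 0 was set to 3 UMIs for a ratio. Thinning drew 2000 UMIs a cell (seed 11) and left out 30.8%, 10.1% and 3.49% of cells as shallower. Symbols came from GENCODE M21, which matched 15119 of 15122 genes. The call functions were tested on simulated data. Tools were Python 3.11.15, numpy 2.4.6, scipy 1.17.1, pandas 2.3.3, matplotlib 3.10.9 and edgeR 4.0.16 in R 4.3.3, used for TMM factors only.

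The members and lists were chosen with earlier results of these data known. Values in every library are given for members with at least 50 CPM in some class and for members called in mesenchyme or ectoderm, by stage or between strains. Called pathway genes are also given. Shares of other genes called leave the 36 members out. The 13 marker lists covered the 5 classes, myeloid cells, megakaryocytes, neural crest, neurons, somite, flank, cartilage and tendon; in the mesenchymal cluster the cartilage markers (6 measured) summed to 51.6, 256.7 and 56.3 CPM, the tendon and connective tissue markers (6) to 225.7, 661.7 and 225.0, the somite markers (5) to 13.0, 114.0 and 9.07, and the neural crest markers (7) to 24.3, 36.7 and 17.5. Alternatives were other scalings, floors, cell filters and thinning.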

Additional observations from a re-analysis of the deposited data

Results flagged for a closer look

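Of the collagen genes, 5 had stage ratios on opposite sides of 1 in different classes, for both E9.5 libraries; the differences between classes were not tested. In each, the lower ratio against c57bl6.J E9.5 is given first. Col23a1 had 0.657 in endothelium, against 8.09 in mesenchyme and 10.95 in ectoderm. Col9a3 had 0.381 in ectoderm and 10.7 in mesenchyme. Col25a1 had 0.634 in muscle progenitors and 28.8 in endothelium, the latter from 3 UMIs at E9.5. Col26a1 had 0.896 in muscle progenitors and 2.11 in ectoderm. Col1a2 had 0.955 in ectoderm, against 7.46 in mesenchyme and 14.9 in endothelium.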

How the results depend on the processing

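No paired analysis was possible because each group is 1 library. TMM scaling left every count of collagen calls as it was. Without a CPM floor, mesenchyme had 8 genes higher and 2 lower, muscle progenitors 2 higher, and the strain comparison 5 lower in mesenchyme and 1 higher and 2 lower in ectoderm. Over all genes the stage calls in mesenchyme then went from 397 higher and 115 lower to 1199 and 331. Those in muscle progenitors went from 286 and 294 to 461 and 305. With a floor of 20 CPM, mesenchyme had 2 higher and 0 lower, ectoderm 0 higher, endothelium 1 higher, and the strain comparison 1 lower in mesenchyme and 0 lower in ectoderm. Over all genes that floor left 171 higher and 54 lower by stage in mesenchyme. It left 89 and 41 of 296 and 99 in ectoderm, and 199 and 34 of 601 and 99 in endothelium. With cells thinned to 2000 UMIs, ectoderm had 1 higher and 1 lower, muscle progenitors 1 and 1, endothelium 2 higher, and mesenchyme 2 higher in 129S6.sv. Over all genes the thinned stage calls were 181 higher and 90 lower in ectoderm, 304 and 140 in muscle progenitors and 271 and 111 in endothelium. In the splits after thinning, Sox9-positive c57bl6.J E9.5 mesenchyme had 1 higher and 1 lower and Scx-positive 129S6.sv 3 lower; for Fgf8 the higher counts were 0, 1 and 1, for En1 0 in c57bl6.J E9.5, and for Wnt7a the lower counts were 1, 1 and 1, each time Col1a2. Without mitochondrial, ribosomal protein and haemoglobin genes in the totals, the ectodermal strain comparison had 1 higher and 2 lower. It had 1 higher in cells with at least 2000 UMIs and 0 lower without shared barcodes. Keeping cells with 2000 or more genes and no more than 5% mitochondrial UMIs gave 1 higher in muscle progenitors, beside 275 over all genes. For the strain and split alternatives no all-gene counts are given here. Ectodermal cells without a mesenchymal marker gave 2 higher and 1 lower. A higher floor or thinning tests fewer genes; the cause of the other changes was not tested. Counts under about 20 UMIs limit the ratios of low genes.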
